A study of Mus musculus with 8 samples.

Results

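The 10 genes described here encode the receptors of macrophages for antibody and for the complement fragments C3a and C5a, and the 3 chains of complement C1q: Fcgr1, Fcgr2b, Fcgr3, Fcgr4, Fcer1g, C1qa, C1qb, C1qc, C3ar1 and C5ar1. They were taken by name, as the probe sets annotated with exactly 1 of these symbols, which gave 20 of the 45101 probe sets and 10 of the 18193 genes on the array. Each gene was represented by its probe set with the highest mean over the 8 arrays, and the other probe sets are given beside it.

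RNA came from F4/80+ tumour-associated macrophages, sorted by flow cytometry from mammary tumours of FVB mice aged 80 days, and was measured on Affymetrix arrays. All mice carried PyMT, a viral oncogene that produces mammary tumours, and an E2f3 gene flanked by recombination sites (E2f3 f/f). The 4 E2f3-deleted arrays (genotype PyMT;Lys Cre:E2f3 f/f, replicates A, E, F and H) also carried a Cre recombinase under control of the lysozyme gene, a gene of macrophages and other myeloid cells, and the 4 control arrays (PyMT;E2f3 f/f, replicates B, C, D and G) had no Cre. No group has Cre without the floxed gene, so loss of E2f3 and presence of Cre cannot be told apart. Groups and replicate letters follow the titles. The letters of the scan files differ from those of the titles on every array but H. Grouping by the scan file letters would exchange control B and E2f3-deleted F, and the labels do not say which letters are right. The labels name no animals or pools, so each p-value reflects the spread between these arrays, part of which may be technical.

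Fcγ receptors bind the constant part of IgG. In the mouse, the receptors encoded by Fcgr1, Fcgr3 and Fcgr4 activate the cell through the γ chain encoded by Fcer1g, whose cytoplasmic motif recruits the kinase Syk, while the receptor encoded by Fcgr2b carries an inhibitory motif and recruits the phosphatase encoded by Inpp5d. C1q, assembled from the products of C1qa, C1qb and C1qc, recognises bound antibody and dying cells, starts the classical complement pathway, and is made largely by macrophages. The receptors of C3a and C5a, small fragments released during complement activation, are encoded by C3ar1 and C5ar1.

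Promoter sequence from RefSeq (build GRCm38.p6) was on hand for 9 of the 10 genes, all but C1qa. The stretches shown are the 120 bases before the start site of 4 genes with letters of a PU.1-type ETS core and of C3ar1, whose groups of arrays did not overlap. PU.1 is a transcription factor of the macrophage lineage. Capitals mark GAGGAA or its complement TTCCTC, and every sequence runs 5′ to 3′ on the strand of the gene.
Fcgr1, chr3:96293970-96294089, minus strand: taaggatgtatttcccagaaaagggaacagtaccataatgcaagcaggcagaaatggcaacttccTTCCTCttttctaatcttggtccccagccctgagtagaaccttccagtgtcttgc
Fcgr3, chr1:171059404-171059523, minus strand: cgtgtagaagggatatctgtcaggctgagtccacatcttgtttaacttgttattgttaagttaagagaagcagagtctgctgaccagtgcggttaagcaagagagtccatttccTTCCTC
Fcgr4, chr1:171018806-171018925, plus strand: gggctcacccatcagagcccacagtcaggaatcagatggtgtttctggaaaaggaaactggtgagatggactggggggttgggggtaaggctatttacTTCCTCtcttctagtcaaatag
C1qb, chr4:136886201-136886320, minus strand: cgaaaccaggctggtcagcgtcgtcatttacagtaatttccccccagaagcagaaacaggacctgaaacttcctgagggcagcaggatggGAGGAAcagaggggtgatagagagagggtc
C3ar1, chr6:122856158-122856277, minus strand: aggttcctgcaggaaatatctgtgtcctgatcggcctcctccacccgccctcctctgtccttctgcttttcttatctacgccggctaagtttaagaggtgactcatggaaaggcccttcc

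Over the 250 bases before each start site, both strands read, the ETS core was present in 5 of the 9 genes (C1qb, C1qc, Fcgr1, Fcgr3 and Fcgr4). Counted by windows of that length, it was in 6 of their 10, 2 of them of Fcgr3, and in 23.3% of all 32841. Its first base lay at −55 in Fcgr1, −6 and −15 from the 2 start sites of Fcgr3, −22 in Fcgr4, −30 in C1qb and −193 in C1qc, counted back from the start site. The letters of a STAT-type element, TTCNNNGAA, were found in Fcgr1 alone of the 9 (1 of 10 windows), and in 7.02% of all windows. Of 2 E2F sites, TTTCCCGC was in 0.895% of all windows and TTTGGCGC in 0.417%, and neither was in the windows of these 9 genes. These are matches of letters and not measured binding.

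The arrays had medians of log2 5.65 to 5.69 and maxima of 14.69 to 14.80. Replicate H stood apart, its signals correlating with those of the other arrays of its group at a mean r of 0.983, against 0.990 to 0.991 for A, E and F and 0.994 to 0.995 within the control group. The means of A, E and F include their r with H. Adgre1, which encodes F4/80, averaged 12.69 ± 0.068 (log2) in E2f3-deleted arrays and 12.88 ± 0.078 in controls (SD, n = 4 each). Lyz2, the brightest of the macrophage markers, had 14.42 ± 0.0855 and 14.56 ± 0.0955. Csf1r, the receptor for the macrophage growth factor CSF1, had 14.33 ± 0.0392 and 14.33 ± 0.0504. All 12 macrophage markers with a probe set passed the filter on mean signal, whereas 7 of 9 T and NK cell markers and 4 of 7 B cell markers were below it. All 12 fibroblast and 13 epithelial markers and 15 of 18 endothelial markers passed it too. E2f3 had 7.63 ± 0.123 in E2f3-deleted arrays and 7.67 ± 0.109 in controls, a difference of −0.05 (95% interval −0.24 to 0.14; limma, adjusted p = 0.812); where its probes lie relative to the deleted part is not given in the labels.

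The comparison of the groups asked how deletion of E2f3 bears on gene expression in these macrophages. All 10 genes had lower mean signals in E2f3-deleted arrays than in controls, by log2 values of −0.03 for C1qa to −0.43 for C5ar1, with a median of −0.164. None of the 10 passed an adjusted p of 0.05 in limma (smallest adjusted p = 0.244, for C3ar1), and neither did any of the 10916 genes tested (0%). A test without moderated variances also passed 0 of the 10 and 0 of all genes. At an unadjusted p under 0.05, limma held 1 of the 10 (C3ar1) and the test without moderation 2 (C3ar1 and C1qc), all with lower values. Of all genes tested, 6.90% were lower at that p in limma and 6.75% in the test without moderation. Of all genes tested 58.7% had a difference under 0, their median was −0.028, and 14.3% lay at or below the median of the 10.

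C3ar1 was the 1 gene of the 10 whose groups did not overlap, which 4.22% of all tested genes did in the lower direction. Its log2 signals were 12.04, 12.29, 12.25 and 12.26 in E2f3-deleted arrays A, E, F and H, against 12.44, 12.44, 12.37 and 12.54 in control arrays B, C, D and G. Every E2f3-deleted array lay below every control, with replicate A lowest. The difference was −0.24 (SE 0.0711, 95% interval −0.40 to −0.08; limma, adjusted p = 0.244), a signal 0.848-fold that of controls. The exact permutation test gave p = 0.0286, two-sided, the smallest that 4 against 4 arrays can give. With arrays grouped by the letter of their scan file, which exchanges control B and E2f3-deleted F, the difference was −0.144 (limma, adjusted p = 0.893). On the same arrays, Adgre1 had a difference of −0.18 (SE 0.0612; limma, adjusted p = 0.275) and also no overlap.

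The other probe sets of C3ar1 had the same order of groups. Probe set 1419483_at had 11.64, 11.64, 11.59 and 11.46 in E2f3-deleted arrays A, E, F and H, against 11.93, 11.83, 11.81 and 11.87 in control arrays B, C, D and G, a difference of −0.275 (limma over all probe sets, adjusted p = 0.317). Probe set 1442082_at differed by −0.211 (limma over all probe sets, adjusted p = 0.397) and its groups did not overlap either. These 3 were the only ones of the 20 probe sets without overlap, against 3.45% of all 45037 probe sets in the lower direction. They measure 1 transcript on the same arrays and are not replicates of the comparison.

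C5ar1, the receptor for the stronger chemoattractant of the pair, had the most negative difference of the 10 genes and the widest spread. It had log2 signals of 6.59, 7.15, 7.09 and 6.37 in E2f3-deleted arrays A, E, F and H, against 7.07, 7.61, 7.22 and 7.03 in control arrays B, C, D and G. Replicates A and H lay below every control, while E and F lay within the range of the controls. The difference was −0.43 (SE 0.205, 95% interval −0.91 to 0.04; limma, adjusted p = 0.385; exact permutation test, p = 0.2). Its second probe set, 1439902_at, differed by −0.439 with an interval of −0.93 to 0.053. With a mean log2 signal of 7.02 it was the gene of the 10 nearest to the filter, set at log2 6.0.

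**Figure D1:**
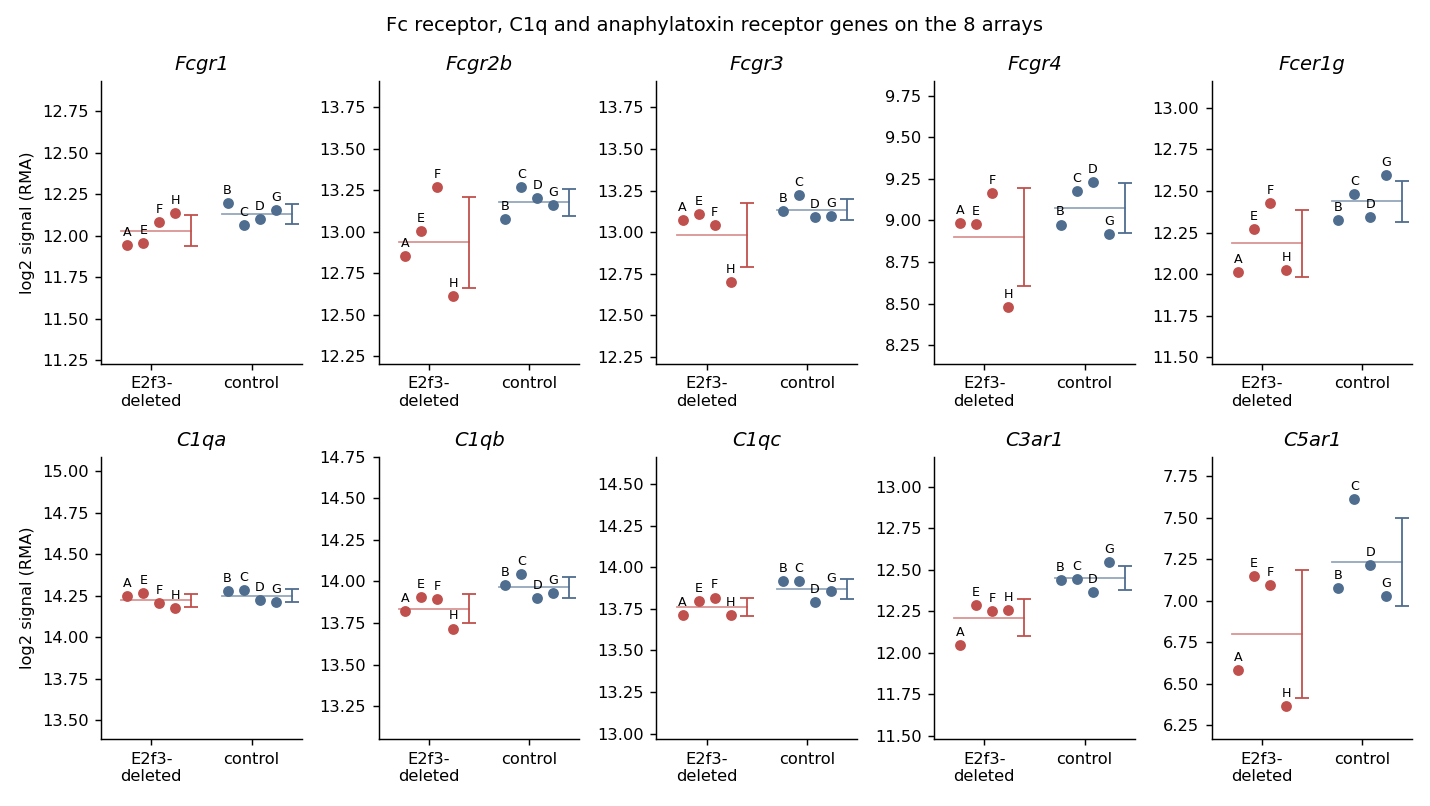
Log2 signal (vertical axis, RMA) of the brightest probe set of each of the 10 genes on every array, with E2f3-deleted arrays left and control arrays right. Points are arrays marked by replicate letter, horizontal lines are group means, bars are SD (n = 4 each), and every panel spans the same height. Only C3ar1 shows groups without overlap, and replicate H lies lowest in Fcgr2b, Fcgr3 and Fcgr4.

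Among the activating receptors for IgG, differences were small and none passed the threshold. Fcgr1, the high-affinity receptor, ranged from 11.95 to 12.14 in E2f3-deleted arrays and from 12.07 to 12.20 in controls, a difference of −0.10 (SE 0.0634; limma, adjusted p = 0.495). Here replicates A and E were the 2 arrays below the controls, and H lay among them. Its second probe set, 1436625_at, differed by −0.123.

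Fcgr3 had log2 signals of 13.07, 13.11, 13.04 and 12.70 in E2f3-deleted arrays A, E, F and H, against 13.13, 13.22, 13.09 and 13.10 in control arrays B, C, D and G. Replicate H stood well below the other 7 arrays, which lay within 13.04 to 13.22. The difference was −0.15 (SE 0.0957; limma, adjusted p = 0.488), and without replicate H it was −0.06 (limma, adjusted p = 0.691).

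Fcgr4, an activating receptor of mouse myeloid cells, had 8.98, 8.98, 9.17 and 8.48 in E2f3-deleted arrays A, E, F and H, against 8.98, 9.18, 9.23 and 8.92 in control arrays B, C, D and G. Replicates A, E and F were within the range of the controls and H below it. The difference was −0.17 (SE 0.149; limma, adjusted p = 0.603), and without replicate H it was −0.03 (limma, adjusted p = 0.912).

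The γ chain gene Fcer1g, on which the activating receptors depend for surface expression and signalling, had 12.02, 12.27, 12.43 and 12.03 in E2f3-deleted arrays A, E, F and H, against 12.33, 12.48, 12.34 and 12.59 in control arrays B, C, D and G. Replicates A and H were about equally low, E just under the lowest control, and F among the controls. The difference was −0.25 (SE 0.110, 95% interval −0.51 to 0.00; limma, adjusted p = 0.357; exact permutation test, p = 0.114).

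The inhibitory receptor gene Fcgr2b had the most probe sets, 5. The brightest, 1435477_s_at, had 12.85, 13.00, 13.27 and 12.62 in E2f3-deleted arrays A, E, F and H, against 13.08, 13.27, 13.20 and 13.16 in control arrays B, C, D and G. Replicate F reached the highest control while A, E and H lay below all controls. The difference was −0.24 (SE 0.130, 95% interval −0.54 to 0.06; limma, adjusted p = 0.426), and without replicate H it was −0.135 (limma, adjusted p = 0.608).

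The other 3 bright Fcgr2b probe sets gave larger differences, −0.354 for 1435476_a_at, −0.365 for 1451941_a_at and −0.371 for 1455332_x_at, with none past the threshold over all probe sets (smallest adjusted p = 0.504, limma). All 4 ranked the E2f3-deleted arrays in the same order, F highest, then E, A and H. The fifth, 1447622_at, was dim, at 2.68 to 2.94 in E2f3-deleted arrays and 2.63 to 3.05 in controls, and differed by 0.066. Fcgr2b and Fcgr3 are similar in their extracellular parts and lie on either side of Fcgr4 on chromosome 1, and suffixes such as _s_at and _x_at mark probe sets with probes that may match more than 1 transcript, and how much signal these genes share was not tested.

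**Figure D2:**
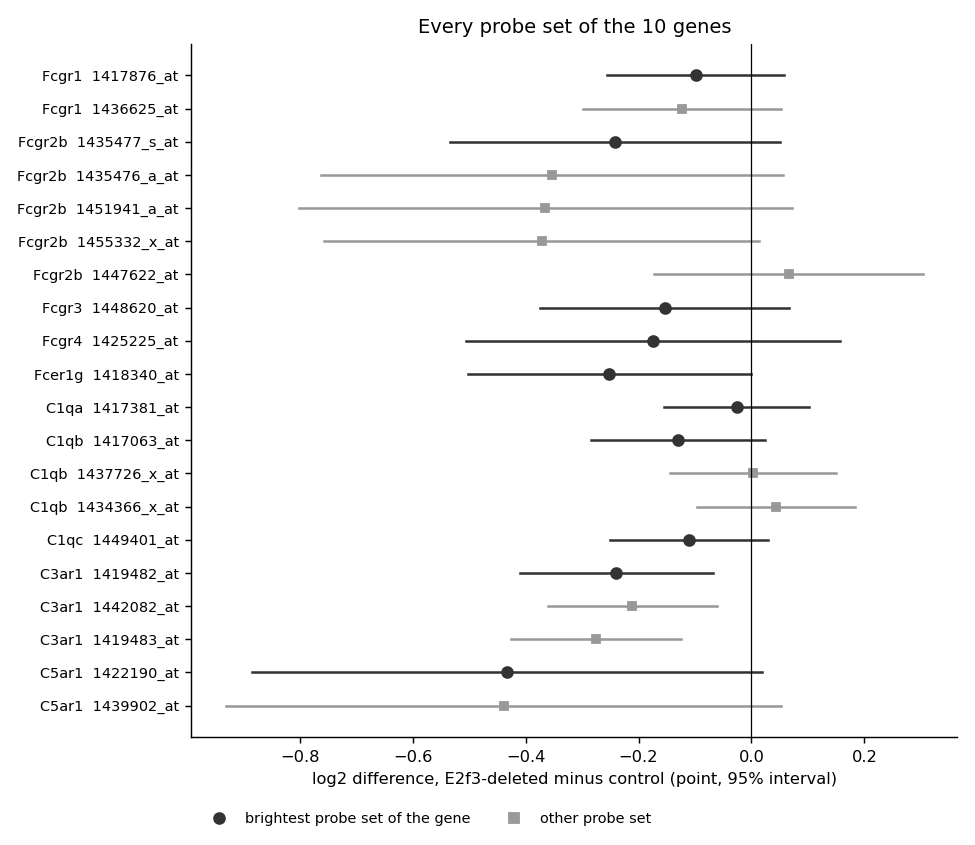
Log2 difference, E2f3-deleted minus control, of all 20 probe sets (horizontal axis), with 95% intervals from limma over all probe sets. Dark circles are the brightest probe set of a gene and grey squares the others. Among the 20, 17 lie below 0 (60.8% of all probe sets do), and the 3 above it are 2 of C1qb and the dim one of Fcgr2b.

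The C1q genes had small differences, of −0.03, −0.13 and −0.11 for C1qa, C1qb and C1qc. C1qb had log2 signals of 13.82, 13.90, 13.90 and 13.72 in E2f3-deleted arrays A, E, F and H, against 13.98, 14.05, 13.90 and 13.93 in control arrays B, C, D and G. Replicates E and F were level with the lowest control, D, and A and H below it. The difference was −0.13 (SE 0.0623, 95% interval −0.27 to 0.01; limma, adjusted p = 0.389; exact permutation test, p = 0.0571).

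C1qc had 13.71, 13.79, 13.82 and 13.71 in E2f3-deleted arrays A, E, F and H, against 13.92, 13.92, 13.79 and 13.86 in control arrays B, C, D and G. The groups overlapped at control D, and the difference was −0.11 (SE 0.055, 95% interval −0.24 to 0.02; limma, adjusted p = 0.402). C1qa ranged from 14.17 to 14.26 in E2f3-deleted arrays and from 14.21 to 14.29 in controls, a difference of −0.03 (95% interval −0.14 to 0.09; limma, adjusted p = 0.818). The 3 genes are neighbours on chromosome 4 and their products are needed in equal parts. Their signals, from 13.71 to 14.29, stood beside array maxima of 14.69 to 14.80.

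The probe sets of C1qb did not share a direction. Against −0.13 for 1417063_at, 1437726_x_at differed by 0.002 (95% interval −0.145 to 0.149) and 1434366_x_at by 0.044 (−0.096 to 0.183). In 1434366_x_at, replicate E had the highest signal of the 8 arrays, 12.39, against 12.21 to 12.31 in controls, and replicate H, lowest in 1417063_at, had 12.24. The direction of C1qb therefore rested on the choice of probe set.

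**Figure D3:**
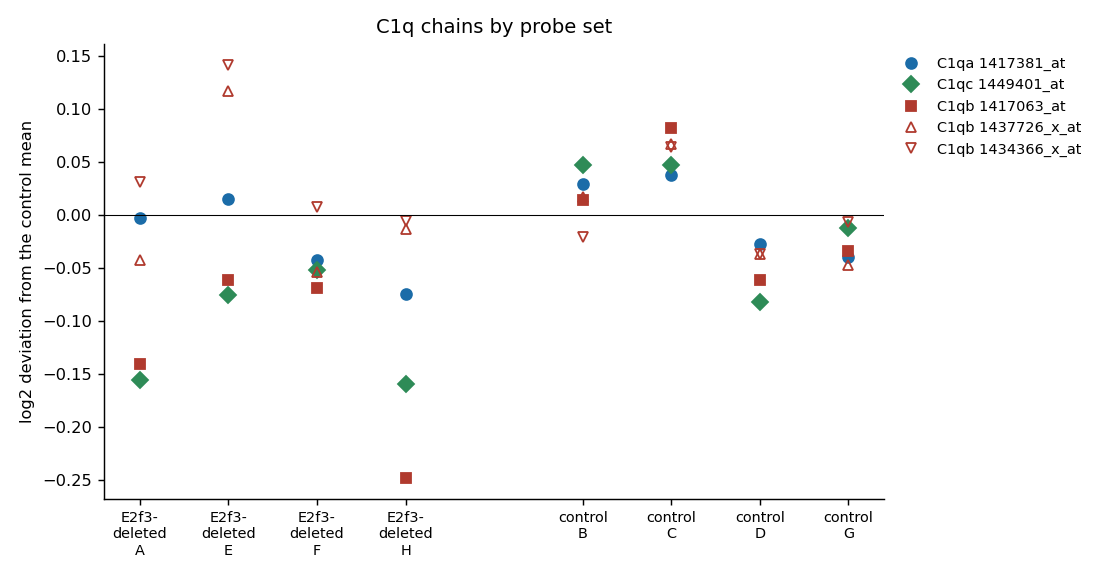
Log2 deviation from the control mean (vertical axis) of every probe set of C1qa, C1qb and C1qc, with E2f3-deleted arrays left and control arrays right. Filled symbols are the brightest probe set of a gene and open triangles the other C1qb probe sets. The open triangles of replicate E lie above 0, where the filled C1qb and C1qc symbols lie below it.

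Across the 10 genes, at least 3 of the 4 E2f3-deleted arrays lay below the control mean in every gene, and all 4 in 6 genes. With replicate H included, the E2f3-deleted arrays had a larger SD than the controls in 9 of 10 genes, C1qc being the exception. SDs without H were not computed. Over all signals, the mean r of an E2f3-deleted array with the others of its group was 0.9825 to 0.9908, against 0.9945 to 0.9953 in controls. The means of A, E and F include their r with H, and r among A, E and F alone was not computed. Replicate H, the array with the lowest mean r, had the lowest of the 8 signals in 7 genes and replicate A in the other 3. Of all genes tested, 58.7% had a lower mean in E2f3-deleted arrays. The shares of all genes that meet these counts of arrays and SDs were not computed. The median deviation of the 10 genes from the control mean was −0.17, −0.09, −0.05 and −0.33 in E2f3-deleted arrays A, E, F and H, and −0.01, 0.06, −0.04 and −0.03 in control arrays B, C, D and G. Without replicate H all 10 differences were still under 0, with a median of −0.114, and 0 of the 10 passed the threshold, as did 0.128% of all genes then.

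Markers of macrophages and of other cells were set beside these values. In bulk RNA, fewer cells of a type and less RNA per cell cannot be told apart. Of the 12 macrophage markers, 11 had lower mean signals in E2f3-deleted arrays (median −0.19), where 58.7% of all genes tested were lower. At an unadjusted p under 0.05, 5 of these markers were lower, against 6.90% of all genes, and 0 passed the threshold. The median deviations of the macrophage markers were −0.19, −0.11, −0.13 and −0.34 in replicates A, E, F and H, and 0.02, 0.09, −0.06 and −0.04 in control arrays B, C, D and G. These stood within 0.1 of the medians of the 10 genes on each array. The log2 of their summed signal was 16.60 to 16.73 in E2f3-deleted arrays and 16.73 to 16.88 in controls.

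Endothelial markers had higher means in 15 of 15 tested genes (median 1.24), 13 at an unadjusted p under 0.05 and 0 past the threshold, with a log2 summed signal of 11.35 to 13.53 in E2f3-deleted arrays and 10.80 to 11.80 in controls, and Pecam1, Cdh5 and Stab2 under the filter. Fibroblast markers had higher means in 12 of 12 (median 0.60, 1 at that p), summed to 13.66 to 15.76 against 13.26 to 14.54 in controls, and epithelial markers in 13 of 13 (median 0.45, 2 at that p), summed to 14.65 to 15.15 against 14.51 to 15.05 in controls, with 0 past the threshold in both lists. Mast cell and basophil markers had higher means in 8 of 8 (median 1.47, 2 at that p, 0 past the threshold), summed to 9.96 to 14.50 in E2f3-deleted arrays and 9.48 to 10.12 in controls. Of all genes 7.27% were higher and 6.90% lower at that p. Replicate H, lowest for Fcgr2b, Fcgr3 and Fcgr4, had a fibroblast median of 1.74 and an endothelial one of 0.04. B cell markers, which matter for Fcgr2b since B cells express it, had lower means in 3 of 3 tested genes, summed to 9.92 to 10.71 in E2f3-deleted arrays and 10.26 to 11.34 in controls, with Cd79a, Pax5, Fcer2a and Blk under the filter.

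Monocyte markers had a median of −0.05 over 5 genes, whose differences ranged from −0.49 to 1.04. Neutrophil markers, relevant to Fcgr3, Fcgr4 and C5ar1, had a median of 0.17 over 5 (−0.59 to 0.26). Medians were 0.18 over 3 for dendritic cell markers and −0.17 over 2 for T and NK cell markers. The neutrophil sum was 10.68 to 12.80 in E2f3-deleted arrays and 11.24 to 12.18 in controls. The excess of 3′ over 5′ signal is larger where RNA is less intact. That of Gapdh averaged log2 1.67 ± 0.167 in E2f3-deleted arrays and 1.45 ± 0.0637 in control arrays (SD, 4 each; two-sided exact permutation p = 0.0571). That of Actb averaged 1.02 ± 0.141 in E2f3-deleted arrays and 0.89 ± 0.0702 in control arrays (two-sided exact permutation p = 0.171). Both were largest in replicates A (1.87 and 1.14) and H (1.73 and 1.10), which were also the lowest for Fcer1g and C5ar1. The part of these markers and of RNA integrity in the differences of the 10 genes was not tested.

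**Figure D4:**
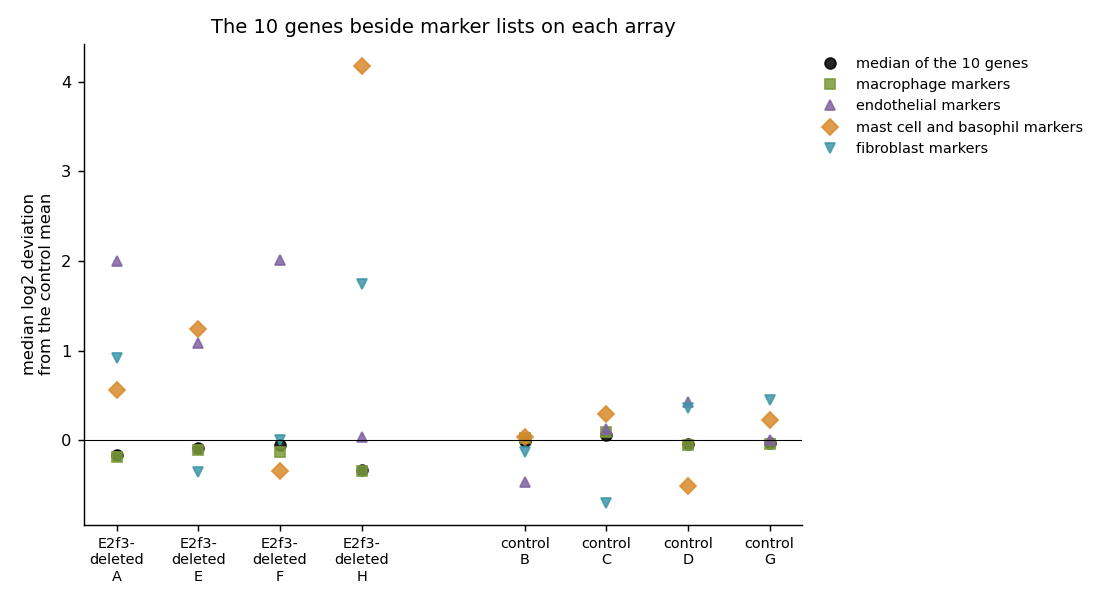
Median log2 deviation from the control mean (vertical axis) on each array of the 10 genes and of 4 marker lists, with E2f3-deleted arrays left and control arrays right. The 10 genes and the macrophage markers lie close together on every array, and replicate H has the lowest median of both, −0.33 and −0.34, and the highest of mast cell and basophil markers, 4.18.

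Genes that act downstream of Fc receptors had a median close to that of the 10 genes. Of 31 tested genes of Fc receptor signalling, 26 had lower and 5 higher means (median −0.16), where 58.7% of all genes tested were lower. At an unadjusted p under 0.05, 8 were lower and 2 higher, against 6.90% and 7.27% of all genes, and 0 of the list passed the threshold. Among its 4 brightest members, Tyrobp, the adaptor related to Fcer1g, had a difference of −0.08 (SE 0.0643), the GTPase gene Rac1 −0.05, Pik3ap1, an adaptor of phosphoinositide 3-kinase, −0.07, and Plcg2, a phospholipase of the pathway, −0.14 (limma, adjusted p = 0.412). Named after their values were seen, Syk had −0.331 (limma, unadjusted p = 0.0686) and Inpp5d −0.162 (limma, unadjusted p = 0.0816). Neither was among the 8 lower genes. The 2 higher at an unadjusted p under 0.05, also named after their values were seen, were Plcg1 (0.392) and Pik3r1 (0.331; limma, adjusted p = 0.158).

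Other Fc receptors varied more widely, with 5 of 8 tested genes lower and 3 higher (median −0.25, 0 past the threshold). The extremes, named after their values were seen, were Fcmr (−1.461; limma, adjusted p = 0.493) and Ms4a2 (1.683; limma, adjusted p = 0.463). Ms4a2 is also in the list of mast cell and basophil markers. Of all genes tested, 58.7% were lower. Fcrls, an Fc receptor-like gene of mouse macrophages and microglia, had 13.44, 13.35, 13.53 and 13.45 in E2f3-deleted arrays A, E, F and H, against 13.84, 13.57, 13.65 and 13.70 in control arrays B, C, D and G. The groups did not overlap, as in 4.22% of all tested genes in the lower direction. The difference was −0.25 (SE 0.0723; limma, adjusted p = 0.237). Fcrls was the only gene of the list at an unadjusted p under 0.05, where 6.90% of all genes were lower. Fcgrt, the neonatal receptor that recycles IgG, had −0.24 (SE 0.267) and was 0.00 without replicate H. Trim21, a cytosolic antibody receptor, had 0.10, and Pigr, the epithelial carrier of polymeric antibody, 0.52 (SE 0.564).

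Among soluble complement components other than C1q, 4 of 8 tested genes were lower and 4 higher (median 0.09), 9 more were below the filter, and 0 passed the threshold. C1s1, a protease that acts with C1q, had 9.34, 7.93, 9.07 and 8.66 in E2f3-deleted arrays A, E, F and H, against 7.68, 7.84, 7.79 and 8.34 in control arrays B, C, D and G, a difference of 0.83 (SE 0.296; limma, adjusted p = 0.283). Cfp, or properdin, had −0.36 (SE 0.381) and the ficolin gene Fcna −0.47 (SE 0.443), which were −0.02 and −0.05 without replicate H, and Cfb, factor B, −0.01. The groups of C1s1 overlapped at replicate E and control G. On the same arrays endothelial and fibroblast markers had median differences of 1.24 and 0.60.

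Complement regulators had higher means in 5 of 6 tested genes (median 0.62), 3 at an unadjusted p under 0.05 (7.27% of all genes were higher at that p) and 0 past the threshold. Clu, or clusterin, had a difference of 0.70 (SE 0.297; limma, adjusted p = 0.346), Cd59a, which blocks the membrane attack complex, 0.64 (SE 0.228; limma, adjusted p = 0.282), Serping1, the inhibitor of C1s and C1r, 0.60 (SE 0.325), and Cr1l, which protects mouse cells from C3 convertases, −0.01. Vtn, the third at that unadjusted p and named after its values were seen, had 1.119. The part of the endothelial, fibroblast and epithelial markers in the values of C1s1 and of these regulators was not tested.

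Other complement receptors and proteins that bind C1q were lower in 8 and higher in 3 of 11 tested genes (median −0.06, 0 past the threshold). Of all genes tested, 58.7% were lower. Lrp1, an uptake receptor that takes part in clearance of C1q-coated cells, had 11.38, 11.41, 11.37 and 11.73 in E2f3-deleted arrays A, E, F and H, against 11.81, 11.80, 11.79 and 11.71 in control arrays B, C, D and G. The difference was −0.30 (SE 0.0877; limma, adjusted p = 0.237), with H alone of its group among the controls. Itgb2, the shared chain of complement receptors 3 and 4, had −0.29 (SE 0.136; limma, adjusted p = 0.378) and was −0.17 without replicate H, while C1qbp had −0.06 and Calr, calreticulin, 0.02.

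**Figure D5:**
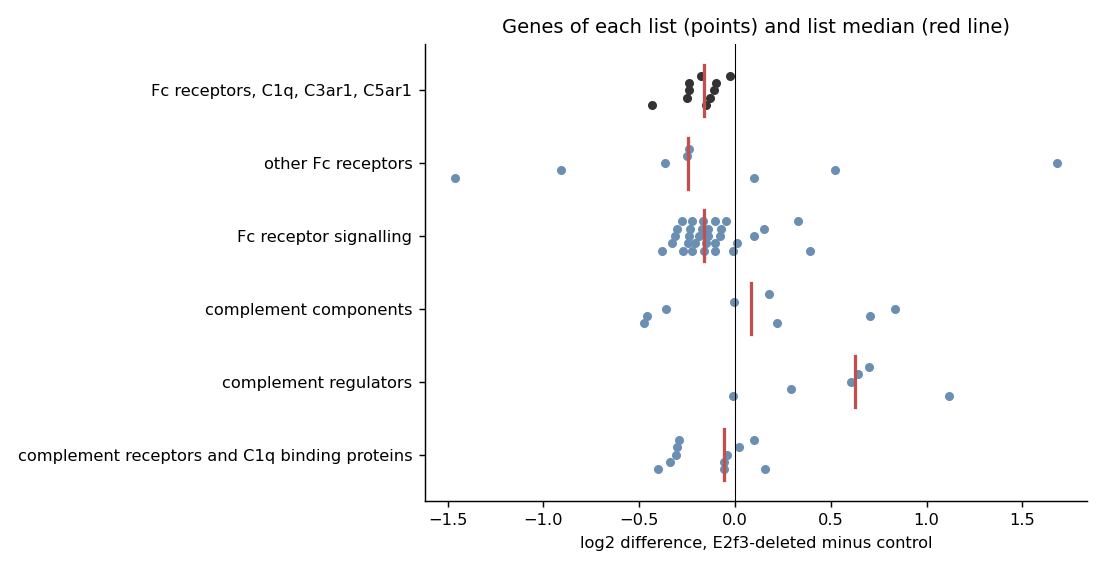
Log2 difference, E2f3-deleted minus control (horizontal axis), of each tested gene (points) in the 10 genes (top row) and 5 related lists, with list medians as red lines. The 10 genes and Fc receptor signalling have medians of −0.164 and −0.16, and the complement regulators 0.62.

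The genes whose signals over the 8 arrays were most like the mean of C1qa, C1qb and C1qc were Atp6v0a1, a subunit of the vacuolar proton pump (r = 0.987), Phf23 (r = 0.974), Brms1 and Slc43a2 (r = 0.971 each) and Blvra, biliverdin reductase A (r = 0.968). Of 10906 genes compared, 185 had r above 0.9. With each group centred on its own mean the 5 values were 0.943 to 0.980, and without the 2 arrays farthest from the median, E2f3-deleted H and control C, they were 0.907 to 0.972. Their differences were −0.11 to −0.30, with 0 past the threshold. These are descriptions over 8 arrays that share 1 normalization, of genes picked as the closest of many.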

How the data were processed

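Gene expression was measured on 8 Affymetrix arrays of F4/80+ macrophages. The deposited values are log2 signals, 1 for each of 45101 probe sets, made by the authors with RMA, per the submitters' processing notes; its version is not given in the sources used here. This method equalises the arrays' distributions. Values were used as deposited. The number of arrays limits the precision.

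Groups came from the titles. Probe sets were named from the platform annotation (34945 with 1 symbol, 932 with several, 9160 with none, 64 controls); 34741 of the symbols were found in a RefSeq table of GRCm38.p6, used for names and neighbours, and 0 were updated. The fit took the 10916 genes with a mean at or above the 40th percentile (log2 6.0), and all 10 genes described passed. Differences (E2f3-deleted minus control) were fitted with limma 3.58.1 in R 4.3.3, two-sided, with Benjamini-Hochberg adjustment over all genes and a threshold of 0.05. A second fit took all 45037 probe sets that are not controls. The fit was tested on simulated data. Exact permutation tests used the 4 against 4 arrays.

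The 10 genes and all lists were chosen with earlier results of these data known. Named genes are the 10, the 4 brightest of each pathway list, the 5 closest to C1q, and the sorted and targeted genes. Of the brightest markers of each list, only Lyz2, Csf1r and Cpa3 are given. Alternatives were other summaries, filters, normalizations, variance priors, weights and thresholds, each array left out, and grouping by scan file letter. The largest share of identical values in a pair of arrays was 0.317%, so no array is a copy of another.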

Additional observations from a re-analysis of the deposited data

Results flagged for a closer look

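In 2 of 40 groups of 4 arrays (20 probe sets, 2 groups each), 1 array lay far from the other 3 relative to the range of its group, about as many as chance gives at 1 in 20. Replicate H of the E2f3-deleted group had a log2 signal of 12.70 for Fcgr3 (probe set 1448620_at), with 0.831 of the range of its group between it and the next array. Replicate A of the same group had 12.04 for C3ar1 (probe set 1419482_at), where that share was 0.836, against a critical value of 0.829. The other probe sets of C3ar1 had no such array.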

How the results depend on the processing

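No alternative passed any of the 10 genes, at an adjusted p under 0.05 or 0.1, and the smallest adjusted p was 0.155, for C3ar1 with array weights. The count of genes with lower means was 10 in every alternative except grouping by scan file letter (9 of 10) and the 60th percentile filter, which left 9 genes, all lower. The median of the 10 was −0.213 to −0.114 with 1 array left out and −0.11 with array weights. Directions turned in 4 cases: C1qa was 0.009 with arrays grouped by scan file letter, C1qb was 0.002 and 0.044 in its other probe sets, and Fcgr2b 0.066 in its dim one; the cause was not tested. Leaving out 1 array moved C1qa, at −0.026, to −0.01 (without H), −0.014 (without control C), −0.017 (without control B) or −0.04 (without E). On leaving out 1 array, Fcgr2b and Fcgr3 moved by over 1.5 times without H, and Fcgr4 without H or F (−0.263). Array weights gave −0.265 for C5ar1, −0.123 for Fcgr2b, −0.091 for Fcgr3 and −0.04 for Fcgr4, and grouping by scan file letter −0.041 for Fcgr1, −0.061 for C1qc and −0.27 for Fcgr4. The mean of its probe sets gave −0.028 for C1qb. No paired analysis was possible because the groups have no replicate letter in common.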

Other observations

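Fcer1g also serves the IgE receptor of mast cells and basophils. Their markers had higher means in 8 of 8 tested genes (median 1.47, 0 past the threshold), with a log2 summed signal of 9.96 to 14.50 in E2f3-deleted arrays and 9.48 to 10.12 in controls, and Fcer1a, Mcpt8 and Hdc under the filter. Their median deviation was 0.56, 1.24, −0.35 and 4.18 in E2f3-deleted arrays A, E, F and H, and −0.51 to 0.29 in controls. The mast cell protease gene Cpa3 had a log2 signal of 12.88 in replicate H, against 6.56 to 8.34 in controls. On that array Fcer1g was at 12.03, below all 4 controls (12.33 to 12.59). Ms4a2, the β chain of the IgE receptor, named after its values were seen, had a difference of 1.683 (limma, adjusted p = 0.463).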
